A study of Mus musculus with 4 samples.

Results

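The genes described here take up, store, digest and export lipid in macrophages. They are Apoe, Abca1 and Abcg1, which carry cholesterol out of the cell, Cd36 and Lpl, which supply it with fatty acids, the fatty acid carriers Fabp4 and Fabp5, the lipid droplet coat Plin2, and Npc2 and Lipa, which handle lipid in the lysosome. They were taken by symbol from the list of 31053 genes in both deposited matrices, and all 10 were found. The study sequenced single cells of the immune system from the left ventricles of C57Bl6J mice, which had received DOCA-salt or a sham treatment. DOCA-salt, a mineralocorticoid given with salt, is a standard way to raise blood pressure in rodents. Hearts were perfused and digested, leukocytes were enriched and sorted by CD45, and 4 mice of each group, marked by hashtag antibodies, were pooled into 1 library. Treatment and library therefore cannot be told apart in any comparison below. Neither dose, duration, age nor sex is given in the labels used here, and no group carries a genetic change.

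Macrophages meet lipid when they clear dead cells and when they bind lipoproteins. Lysosomal enzymes release free cholesterol and fatty acids, which are exported, burned or packed into droplets. The nuclear receptor LXR senses sterols and raises Apoe, Abca1 and Abcg1, while PPAR factors respond to fatty acids and raise Cd36, Fabp4 and Plin2. Trem2, the receptor named in the title of the series, binds lipids and lipoproteins including ApoE, signals through the adaptor Tyrobp, and in other tissues marks lipid-associated macrophages. Heart macrophages include a resident population with Lyve1 and a population renewed by monocytes.

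Apoe is the gene with the clearest difference below and Abca1 is its partner in cholesterol export, so the stretch upstream of each start is shown. The bases come from RefSeq (GRCm38.p6, the build equal to mm10) and are the 250 bases before the start, 5′ to 3′ on the gene's strand. Capitals mark matches to the E-box CACGTG and to AGGTCA, the nuclear receptor motif, occurring as a direct repeat with 4 bases between the copies.
Abca1, chr4:53159896-53160145, minus strand: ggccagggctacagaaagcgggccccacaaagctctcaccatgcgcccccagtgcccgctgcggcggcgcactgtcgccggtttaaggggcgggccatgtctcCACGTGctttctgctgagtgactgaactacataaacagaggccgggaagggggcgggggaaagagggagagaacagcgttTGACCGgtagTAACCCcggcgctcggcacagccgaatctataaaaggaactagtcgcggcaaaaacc
Apoe, chr7:19699189-19699438, minus strand: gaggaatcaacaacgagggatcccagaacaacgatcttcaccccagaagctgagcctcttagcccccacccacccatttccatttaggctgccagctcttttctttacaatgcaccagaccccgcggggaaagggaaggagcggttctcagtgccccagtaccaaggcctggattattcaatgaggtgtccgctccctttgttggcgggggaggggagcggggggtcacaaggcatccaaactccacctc
The Abca1 stretch held the E-box from 147 to 142 bases before the start and the repeat, with 3 mismatches and on the opposite strand, from 67 to 52 bases before it. The Apoe stretch held no match, which says only that these letters are not in this window. Searched on both strands over 32851 windows of the same length, the E-box was present in 6.02% and the repeat with up to 3 mismatches in 18.5%. A single AGGTCA, present in 14.0% of windows, was found in those of Cd36, Plin2 and Trem2. A window was at hand for 6 of the 10 genes.

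Apoe lies on chromosome 7 (GRCm38, 19696109 to 19699188, minus strand), Abca1 on chromosome 4 (53030787 to 53159895, minus strand), Abcg1 on chromosome 17 (31057675 to 31117988, plus strand) and Cd36 on chromosome 5 (17781690 to 17888801, minus strand). Lpl lies on chromosome 8 (68880491 to 68907448, plus strand), Plin2 on chromosome 4 (86648386 to 86670060, minus strand), Npc2 on chromosome 12 (84754562 to 84773152, minus strand) and Lipa on chromosome 19 (34492318 to 34527474, minus strand). Fabp4 (10204088 to 10208576, minus strand) and Fabp5 (10012548 to 10016607, plus strand) are neighbours on chromosome 3. All are protein coding, and values count molecules over the whole gene.

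The analysis used 6865 DOCA-salt and 4061 sham cells with a median of 3228 and 2808 unique molecular identifiers (UMIs), counts of captured RNA molecules. Single mice contributed 763 to 2171 cells in the DOCA-salt library and 620 to 1274 in the sham library. The libraries shared 41 barcodes. Cells formed 16 clusters, and classes are called "X-like" from marker genes. There were 717 DOCA-salt and 296 sham macrophage-like cells, in 4 clusters called by their leading genes Lyve1, Dock4, Chil3 and Birc5. The Dock4-led cluster was shallow, with a median of 1510 UMIs in DOCA-salt and 1181 in sham cells, and had the most mitochondrial RNA. DOCA-salt mouse 1 gave 325 of the macrophage-like cells and 107 of the 148 DOCA-salt cells in the Birc5-led cluster. Classical monocyte-like and neutrophil-like cells were few in sham hearts, 15 of each, with 1 cell in some mice. Levels are in CPM, a gene's UMIs per 1000000 UMIs of all the cells of a class in 1 mouse. Of the 10 genes, 6 were among the variable genes used to cluster, so differences between classes carry no test.

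Across the 8 classes, Apoe was highest in macrophage-like cells. It averaged 14074 ± 4611 CPM there over the 8 mice (SD, n = 8), 3161 ± 1293 in nonclassical monocyte-like and 2098 ± 1219 in classical monocyte-like cells. In the remaining classes its mean lay between 131 CPM in cDC-like and 438 CPM in neutrophil-like cells. Every macrophage-like value lay above every value of the other classes, while both monocyte classes overlapped each other. Macrophage-like cells were 10.4% of DOCA-salt and 7.29% of sham cells, and they held 80.1% and 67.4% of each library's Apoe UMIs.

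Abca1, the transporter that loads cholesterol onto lipid-poor apolipoproteins, was also highest in macrophage-like cells, at 115 ± 22.6 CPM (SD, n = 8). B-like cells came next with 41.3 ± 8.60 CPM, below every macrophage-like value, and all other classes averaged 21.8 CPM or less. Abcg1, which passes cholesterol to mature HDL particles, instead peaked in nonclassical monocyte-like cells, at 83.7 ± 25.0 CPM. Its mean in the other 7 classes, macrophage-like included, lay between 22.4 and 30.4 CPM, within the spread of the mice.

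Of the genes that bring fatty acids in, Cd36, a scavenger receptor, was held by nonclassical monocyte-like cells (301 ± 64.0 CPM) and macrophage-like cells (199 ± 70.8 CPM; SD, n = 8), whose mice overlapped. It averaged 23.8 CPM or less elsewhere. Lpl, which frees fatty acids from triglyceride-rich lipoproteins, averaged 205 ± 91.7 CPM in macrophage-like cells and 94.7 ± 93.9 in classical monocyte-like cells, which overlapped. Fabp4 was highest in nonclassical monocyte-like cells, at 492 ± 608 CPM, a mean raised by 1 mouse. The lowest mouse there, at 157 CPM, was above every value of the other classes except T-like cells, whose highest was 532 CPM. Fabp5 had no stable order, with neutrophil-like cells first at 107 ± 92.0 CPM and the next 4 classes inside that spread. Fabp4 and Fabp5 gave 85 and 192 UMIs in all DOCA-salt macrophage-like cells, and 19 and 28 in sham ones.

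Plin2 was highest in nonclassical monocyte-like cells, at 279 ± 64.5 CPM, ahead of macrophage-like cells at 185 ± 37.9 CPM and classical monocyte-like cells at 145 ± 73.7 CPM (SD, n = 8), and each neighbour in this order overlapped the next. Npc2, which hands cholesterol out of the lysosome, was highest in classical monocyte-like cells, at 1577 ± 192 CPM, with no value below those of macrophage-like cells (900.3 ± 140 CPM). Lipa, the acid lipase that splits cholesteryl esters and triglycerides, averaged 206 ± 44.8 CPM in macrophage-like and 121 ± 33.4 CPM in nonclassical monocyte-like cells, whose mice overlapped. In all, 4 of the 10 genes had their highest mean in macrophage-like cells and 4 in nonclassical monocyte-like cells.

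Within the macrophage-like cells, Apoe averaged 17958 CPM in the Lyve1-led and 17991 CPM in the Dock4-led cluster, against 8544 CPM in the Chil3-led and 9939 CPM in the Birc5-led cluster. Abca1 averaged 388 CPM in the Dock4-led cluster, 120 in the Lyve1-led and 36.0 or less in the others. Cd36 ranged from 138 CPM in the Chil3-led to 250.1 CPM in the Lyve1-led cluster, and Lpl from 112 CPM in the Birc5-led to 246 CPM in the Chil3-led cluster. Npc2, at 571 CPM, was lowest in the Dock4-led cluster, where Lipa, at 263 CPM, was highest.

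In macrophage-like cells, Apoe was higher in every DOCA-salt mouse than in any sham mouse. It had 14848, 14815, 23083 and 17704 CPM in the 4 DOCA-salt mice, against 10088, 9585, 10474 and 11992 CPM in the 4 sham mice. DOCA-salt mouse 3, the one with the fewest macrophages, was highest, and the lowest DOCA-salt mouse stood well above the highest sham mouse. The log2 fold change was 0.72 ± 0.15 (SE), and the adjusted p of edgeR's quasi-likelihood test was 0.0519, just short of the 0.05 threshold. DESeq2 gave 0.71 with an adjusted p of 0.0209, and 9 of the 20 alternatives run placed Apoe past the threshold. Of 4540 genes tested there, 8 passed (0.176%). No lipid-handling gene passed among the 7 tested. Of them 2 had an unadjusted p under 0.05, a level whose share over all genes is not given here.

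**Figure D1:**
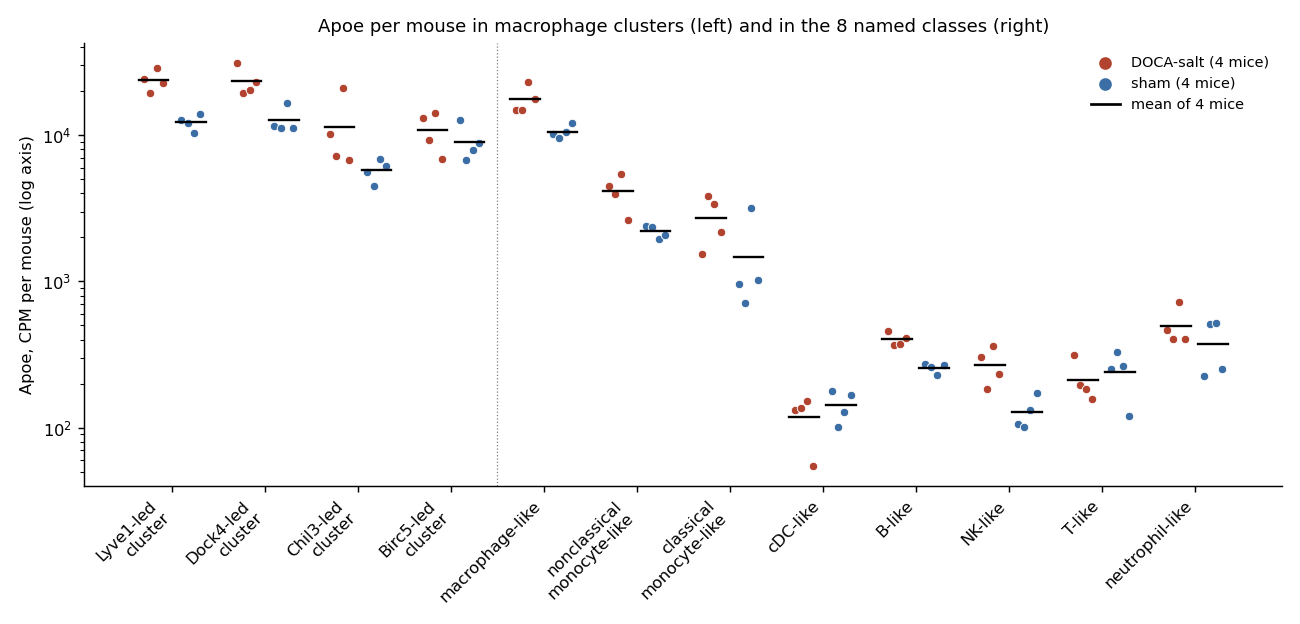
Apoe in CPM on a log axis, 1 point per mouse, in the 4 macrophage clusters and the 8 classes, with DOCA-salt left of sham and a line at the mean of 4 mice. The groups separate in the Lyve1-led and Dock4-led clusters and in macrophage-like, nonclassical monocyte-like, B-like and NK-like cells, and overlap in T-like and cDC-like cells.

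Cd36 was the other tested gene whose groups did not overlap, in the opposite direction. It had 56.4, 224, 173 and 151 CPM in DOCA-salt mice, against 288, 231, 235 and 229.7 CPM in sham mice. DOCA-salt mouse 1 was far the lowest, and DOCA-salt mouse 2 came close to the lowest sham mouse. The log2 fold change was -0.77 ± 0.31 (edgeR adjusted p = 0.444) and -0.41 without DOCA-salt mouse 1, and so it did not pass. The Lyve1-led cluster, where Cd36 was highest, made up 13.5% of the macrophage-like cells of DOCA-salt mouse 1, between 27.9% and 50% of those of the other DOCA-salt mice and between 33.3% and 54.6% of those of sham mice. Within that cluster the Cd36 values of the groups, 148 to 271 CPM in DOCA-salt and 233 to 379.9 CPM in sham mice, overlapped. The log2 fold change there was -0.52 ± 0.21. The part of cluster make-up in the Cd36 difference was not tested. In macrophage-like cells as a whole, Cd36 and Apoe were the 2 of 7 tested genes without overlap, where 5.77% of all genes tested had none.

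The other genes of cholesterol export gave no call. Abca1 had 101, 134, 117 and 143 CPM in DOCA-salt mice, against 131, 77.1, 124 and 93.1 CPM in sham mice, a log2 fold change of 0.27 ± 0.22 (edgeR adjusted p = 0.812). Abcg1 had 39.3, 30.6, 66.2 and 32.5 CPM in DOCA-salt mice, against 26.2, 15.4, 17.6 and 15.5 CPM in sham mice. The Abcg1 values did not overlap either, but they rest on 125 UMIs and 16 UMIs, and the gene fell below the filter on low counts and was not tested.

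Storage and lysosomal genes gave no difference past the threshold. Plin2 had 205, 250.3, 163 and 187 CPM in DOCA-salt mice, against 200.5, 179, 118 and 177 CPM in sham mice (log2 fold change 0.26 ± 0.19, edgeR adjusted p = 0.788). Npc2 had 1199, 831, 769 and 833 CPM in DOCA-salt mice, against 985, 793, 935 and 857 CPM in sham mice (0.02 ± 0.16). Lipa and Lpl differed by -0.17 ± 0.20 and -0.22 ± 0.35, with edgeR adjusted p of 0.914 and 0.954. Over the 7 genes tested the median log2 fold change was 0.02, and over all 4540 genes it was 0.01.

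Fabp4 and Fabp5 were too sparse in macrophage-like cells to test. Fabp5 had 86.3, 40.7, 5.1 and 11.4 CPM in DOCA-salt mice, against 17.4, 70.9, 0 and 9.3 CPM in sham mice. DOCA-salt mouse 1 held 156 of the 192 UMIs of its library's macrophage-like cells. The same mouse had 1103 CPM of Spp1, a secreted phosphoprotein of lipid-associated macrophages, where every other mouse had under 31 CPM. Trem2 itself had 454, 281, 392 and 244 CPM in DOCA-salt mice, against 227, 173, 199.96 and 217 CPM in sham mice. Trem2 was higher in each DOCA-salt mouse than in any sham mouse, with a log2 fold change of 0.74 ± 0.21 that did not pass (edgeR adjusted p = 0.200). Tyrobp differed by -0.08 ± 0.13 (adjusted p = 0.956).

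Among the macrophage clusters, Apoe rose in the Lyve1-led and Dock4-led ones. In the Lyve1-led cluster Apoe had 24047, 19320.4, 28595 and 22580 CPM in DOCA-salt mice, against 12763, 12148, 10248 and 13964 CPM in sham mice. The groups lay far apart, and the log2 fold change was 0.91 ± 0.13, a 1.88-fold higher level (edgeR adjusted p = 0.00101). Apoe passed under all 11 alternatives run in this cluster. It was 1 of 7 lipid-handling genes tested, where 18 of 2911 genes (0.618%) passed.

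For Abca1 in the same cluster the groups also lay apart, without passing. It had 161, 139, 207 and 143 CPM in DOCA-salt mice, against 38.0, 52.8, 101 and 121 CPM in sham mice, which do not overlap but rest on 2 to 52 UMIs a mouse. The log2 fold change of Abca1 was 0.78 ± 0.27 (edgeR adjusted p = 0.266). Apoe and Abca1 were the 2 of 7 tested genes without overlap, against 5.53% of all genes in the cluster. Cd36 differed by -0.52 ± 0.21 (adjusted p = 0.420) and Lpl by -0.62 ± 0.34 (0.640), while Npc2, Lipa and Plin2 lay between -0.03 and 0.15.

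In the Dock4-led cluster Apoe had 31148, 19249.9, 20367 and 22871 CPM in DOCA-salt mice, against 11518, 11210.1, 16445 and 11121 CPM in sham mice. Apoe rose without overlap, by 0.77 ± 0.20 (edgeR adjusted p = 0.0215), and was 1 of 3 lipid-handling genes tested in a cluster where 7.57% of 502 genes passed. Groups without overlap were frequent there, at 13.3% of all genes tested. Without DOCA-salt mouse 4 or sham mouse 1, 2 or 4 its adjusted p lay between 0.0513 and 0.108, and without a filter on low counts it was 0.138. In the same cluster 8 classical monocyte markers summed to between 509 and 988 CPM in DOCA-salt mice, all 8 with UMIs, and to between 291 and 399.9 CPM in sham mice, where Chil3, Vcan, Hp, Plac8 and Ifitm6 were at 0. Tyrobp lay between 1313 and 2271 CPM in DOCA-salt mice and between 319.9 and 1014 CPM in sham mice, with a log2 fold change of 0.85 ± 0.29 (edgeR adjusted p = 0.0839). Their part in the Apoe difference was not tested. In the Chil3-led cluster Apoe had 10171, 7176, 21098 and 6755 CPM in DOCA-salt mice, against 5635, 4464, 6899 and 6151 CPM in sham mice. The groups overlapped there, and its change of 0.95 ± 0.35 did not pass (adjusted p = 0.865). In the Birc5-led cluster its change was 0.40 ± 0.27 (adjusted p = 0.661). No lipid-handling gene passed among 6 tested in the Chil3-led cluster, where 0% of 1352 genes did and 64 had an unadjusted p under 0.05, with 1 of the 6 among them, or among 2 in the Birc5-led cluster (0.59% of all genes), neither with an unadjusted p under 0.05.

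**Figure D2:**
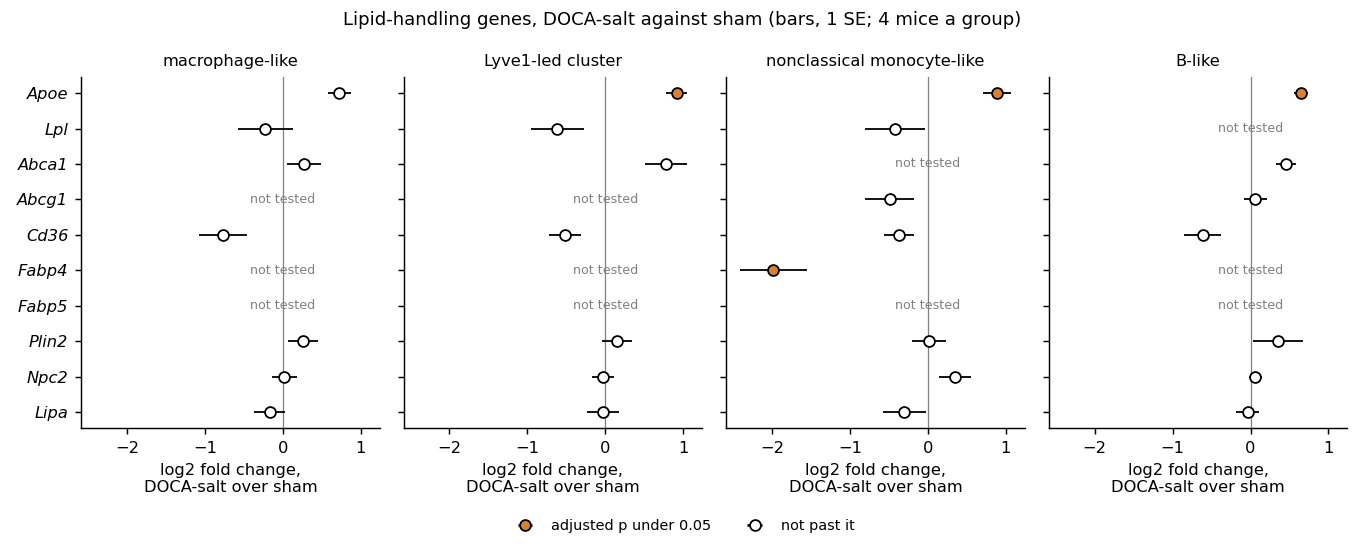
Log2 fold change of DOCA-salt over sham with 1 SE for each gene in 4 cell groups, from edgeR on 4 mice a group, with filled points past an adjusted p of 0.05. Apoe lies at 0.65 to 0.91 in all 4 and is the one gene past the threshold in more than 1 of them, and Cd36 lies below 0 in each.

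In nonclassical monocyte-like cells, the patrolling monocytes, Apoe rose, while a call of lower Fabp4 depended on 1 sham mouse. Apoe had 4459, 3936, 5459 and 2645 CPM in DOCA-salt mice, against 2408, 2365, 1945 and 2068 CPM in sham mice. Each DOCA-salt mouse was above all sham mice, with a log2 fold change of 0.89 ± 0.18, or 1.85-fold (edgeR adjusted p = 0.00612), and Apoe passed in all 17 alternatives run. In the same cells 8 classical monocyte markers summed to between 3257 and 6033 CPM in DOCA-salt mice and between 1626 and 2249 CPM in sham mice, all 8 with UMIs in each group, and did not overlap. The summed 15 macrophage markers lay between 3008 and 4144 CPM in DOCA-salt mice and between 2417 and 3172 CPM in sham mice, with Lyve1 and Cd163 at 0 in sham mice. Their part in the Apoe difference was not tested. Apoe and Fabp4 were the 2 of 8 lipid-handling genes tested that passed with all cells, in a class where 1.7% of 2288 genes did. The Fabp4 call did not hold without sham mouse 2. Apoe was the 1 gene of the 8 without overlap, where 7.39% of all genes tested had none.

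Fabp4 had 278, 207, 239 and 157 CPM in DOCA-salt mice, against 355, 1971, 213 and 512 CPM in sham mice. Sham mouse 2 stood alone, and the other sham mice overlapped the DOCA-salt mice. The log2 fold change was -1.98 ± 0.43 (edgeR adjusted p = 0.0114). In sham mouse 2, 230 of the 280 Fabp4 UMIs sat in 1 cell of 16494 UMIs that held 4 of 5 endothelial markers. Capillary endothelium expresses Fabp4 and Cd36 strongly, and 8 cells of 10926 in all classes, holding 3 or more of these markers, carried 57.7% of all Fabp4 UMIs, 8.24% of Fabp5, 7.03% of Cd36 and 0.0536% of Apoe. Without those cells sham mouse 2 had 398 CPM, and the change in nonclassical monocyte-like cells was -0.79 ± 0.23, no longer past the threshold (edgeR adjusted p = 0.0754). Without sham mouse 2 it was -0.73 (0.227), and DESeq2 with all cells gave an adjusted p of 0.178.

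**Figure D3:**
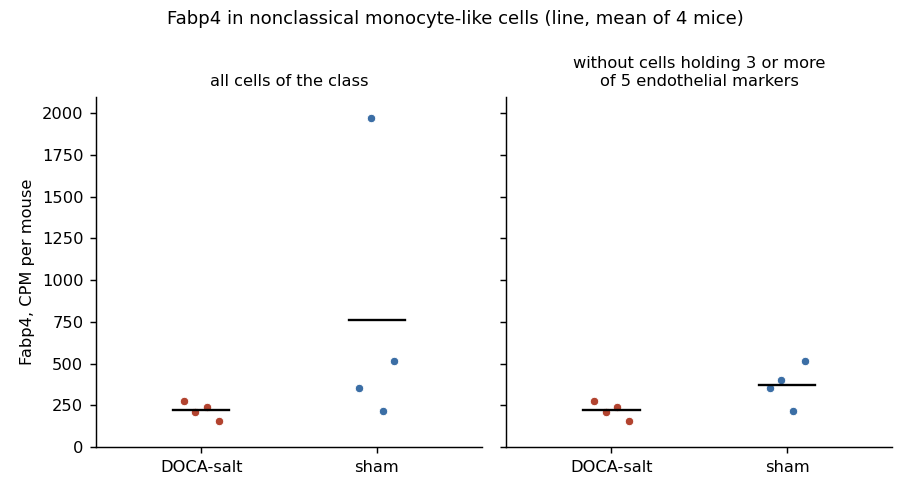
Fabp4 in CPM per mouse in nonclassical monocyte-like cells, DOCA-salt left of sham, with a line at the mean of 4 mice. With all cells sham mouse 2 stands at 1971 CPM, and without cells holding endothelial markers it stands at 398 CPM, among the other sham mice.

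Of the other genes in nonclassical monocyte-like cells, Cd36 had 249, 301, 191 and 296 CPM in DOCA-salt mice, against 394, 317, 289 and 371 CPM in sham mice. The groups overlapped, and the change was -0.38 ± 0.19 (edgeR adjusted p = 0.461). Abcg1, at its highest in this class, differed by -0.49 ± 0.32 (adjusted p = 0.576), with sham mice on both sides of the DOCA-salt range. Npc2 differed by 0.35 ± 0.20, and Plin2, Lpl and Lipa by 0.02, -0.43 and -0.30, none past the threshold. In classical monocyte-like cells Apoe had 1538, 3816, 3375 and 2188 CPM in DOCA-salt mice, against 966, 709, 3163 and 1026 CPM in sham mice, where the 3163 came from a single cell. The change of 1.21 ± 0.37 did not pass (edgeR adjusted p = 0.577), as 1 gene of 1291 (0.0775%) did and 0 of the 3 lipid-handling genes tested.

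Apoe also rose in B-like and NK-like cells, at levels far below those of macrophages. B-like cells had 456, 369, 371 and 409 CPM in DOCA-salt mice, against 275, 259.6, 228 and 270.1 CPM in sham mice, a tight separation with a log2 fold change of 0.65 ± 0.09, or 1.57-fold (edgeR adjusted p = 0.000627). NK-like cells had 303, 185, 361 and 233 CPM in DOCA-salt mice, against 107, 102, 133 and 172 CPM in sham mice, a change of 0.90 ± 0.17 (edgeR adjusted p = 0.00541). Apoe was the 1 gene of 7 that passed in B-like cells, where 1.51% of 8671 genes did, and of 5 in NK-like cells, where 0.927% of 6583 did. In B-like cells 2 of the 7, Apoe and Abca1, had groups without overlap, against 8.26% of all genes tested. In NK-like cells 1 of the 5, Apoe, had none, against 5.91%. In NK-like cells it did not pass with cells thinned to equal depth (0.74, adjusted p = 0.118), with a stricter hashtag margin (0.71, 0.107) or with clusters weighted equally (0.12, 0.969).

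Apoe in B-like cells passed in all 19 alternatives run. Other lists did not overlap there either. The 7 B cell markers summed to between 9606 and 10786 CPM in DOCA-salt mice and between 11039 and 11906 CPM in sham mice, and 5 erythroid markers, without Alas2 in either group, to between 1.17 and 24.1 CPM and between 45.9 and 63.3 CPM. The 6 endothelial markers summed to between 78.4 and 86.7 CPM in DOCA-salt mice, with Emcn at 0, and between 97.5 and 106 CPM in sham mice, with Cldn5 at 0. One of the 3 B-like clusters held 109 DOCA-salt and 224 sham cells, while the others held more DOCA-salt cells. The part of these in the Apoe difference was not tested.

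Macrophage transcripts were present in the same lymphocytes. The summed 15 macrophage markers lay between 262 and 336 CPM in B-like cells of DOCA-salt mice and between 260.1 and 277 CPM in those of sham mice. In NK-like cells they lay between 263 and 590 CPM in DOCA-salt mice and between 215 and 395 CPM in sham mice. All 15 had UMIs in each group. For every 100 UMIs of the 3 C1q genes there were 83.5 Apoe UMIs in macrophage-like cells of the DOCA-salt library and 50.8 in those of the sham library. The same ratio was 94.6 and 61.4 in NK-like, 102 and 65.9 in T-like and 202 and 136 in B-like cells. It was thus near that of macrophages in NK-like cells, somewhat above it in T-like cells and further above it in B-like cells. In all 3 it was higher in the DOCA-salt library, as in macrophage-like cells. The part of free macrophage RNA in the Apoe difference of lymphocytes was not tested.

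In T-like cells, measured at greater depth, the groups overlapped. Apoe there had 316, 197, 183 and 158 CPM in DOCA-salt mice, against 251, 329, 263 and 119.7 CPM in sham mice, with the 2 highest values in opposite groups. Its change was -0.11 ± 0.24 (edgeR adjusted p = 0.961). The summed 15 macrophage markers in T-like cells also overlapped. They lay between 214 and 443 CPM in DOCA-salt mice and between 283 and 734 CPM in sham mice. None of 7 lipid-handling genes passed in T-like cells, where 0.392% of 6880 genes did, by edgeR or by DESeq2. At an unadjusted p under 0.05, with no share of all genes given here, there was 1 gene of the 7. That gene was Fabp4, at -2.98 ± 0.96 (adjusted p = 0.320). Sham mouse 2 had 262 of its UMIs, 261 of them in 1 cell with 5 endothelial markers, and without sham mouse 2 the change was -0.20.

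Among the other genes in B-like cells, Abca1 had 54.1, 40.2, 52.7 and 44.6 CPM in DOCA-salt mice, against 37.8, 31.1, 32.1 and 37.7 CPM in sham mice. The groups did not overlap, with a change of 0.46 ± 0.12 (edgeR adjusted p = 0.0895). Cd36 differed by -0.61 ± 0.24 (adjusted p = 0.256) and Abcg1, Npc2 and Lipa by -0.04 to 0.06. In cDC-like cells 2 lipid-handling genes were tested, Apoe (-0.29 ± 0.40) and Npc2 (-0.22 ± 0.21), and none passed. There 0% of 1067 genes passed, with 58 at an unadjusted p under 0.05 in edgeR and 0 passing in DESeq2. In neutrophil-like cells none of the 10 genes could be tested, and 0% of 331 genes passed (16 at an unadjusted p under 0.05, 0 passing in DESeq2).

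Whether the treatment difference itself differed between classes was tested in a joint model with the mouse as a block. For Apoe, the difference in macrophage-like cells minus that in nonclassical monocyte-like cells was -0.16 ± 0.23 on the log2 scale (edgeR adjusted p = 0.927). Against B-like cells it was 0.05 ± 0.17 (0.994) and against NK-like cells -0.28 ± 0.19 (0.848). At this precision a difference in the Apoe effect between macrophages and these classes was not detectable. The joint model was not run against T-like or cDC-like cells, so a difference of macrophages from those was not tested. No lipid-handling gene passed in any of the 3 contrasts, where 0.0535%, 0.162% and 0.0147% of all genes did. At an unadjusted p under 0.05, for which no share of all genes is given here, there were 3, 1 and 2 of the 10. Abcg1, measured on few UMIs, was among them in each contrast, at 1.51 ± 0.53 against nonclassical monocyte-like, 1.02 ± 0.40 against B-like and 1.02 ± 0.43 against NK-like cells (edgeR adjusted p of 0.420, 0.574 and 0.751). Fabp4 had 2.21 ± 0.55 against nonclassical monocyte-like cells (edgeR adjusted p = 0.180), a contrast that holds the same sham mouse 2.

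The share of macrophage-like cells with at least 1 UMI was compared as a second readout. Abca1 was detected in 32.7% ± 5.08 of cells in DOCA-salt mice and 19.3% ± 2.79 in sham mice, and Abcg1 in 12.3% ± 3.44 and 5.82% ± 1.68 (SD, n = 4 each). Cd36 was detected in 29.6% ± 6.93 in DOCA-salt mice and 41.5% ± 2.17 in sham mice. In all 3 the groups did not overlap, and each reached 0.0286, the smallest p of the two-sided exact permutation test with 4 mice against 4, or 0.0952 adjusted over the 10 genes. DOCA-salt cells were deeper, with a median of 3812 UMIs against 2914 in sham cells. Detection was compared for the 10 genes alone, so how often the groups do not overlap over all genes is not known.

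With every cell thinned to 1500 UMIs, 118 DOCA-salt and 90 sham cells were too shallow and left out. Most of them were of the Dock4-led cluster, where Abca1 was highest and of which 93 of 182 DOCA-salt and 23 of 85 sham cells were kept. Abca1 was then detected in 15.7% ± 2.23 of cells in DOCA-salt mice and 7.53% ± 6.39 in sham mice, and Cd36 in 19.8% ± 7.64 and 31.2% ± 3.11 (SD, n = 4 each), each still at the smallest exact permutation p of 0.0286 (adjusted 0.143). For Abca1 the lowest DOCA-salt mouse, at 13.18%, was barely above the highest sham mouse, at 13.16%, in this 1 random thinning. Abcg1 was detected in 4.42% ± 0.911 and 2.50% ± 4.17, which overlapped (exact permutation p = 0.457). In unthinned T-like cells, with a median of 5423 UMIs in DOCA-salt and 4209 in sham mice, 3.26% and 3.44% of cells had an Abca1 UMI and 1.38% and 2.15% a Cd36 UMI. For Abcg1 the unthinned T-like shares were 13.7% and 11.4%. The unthinned means in macrophage-like cells, which were shallower, were 12.3% and 5.82%.

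**Figure D4:**
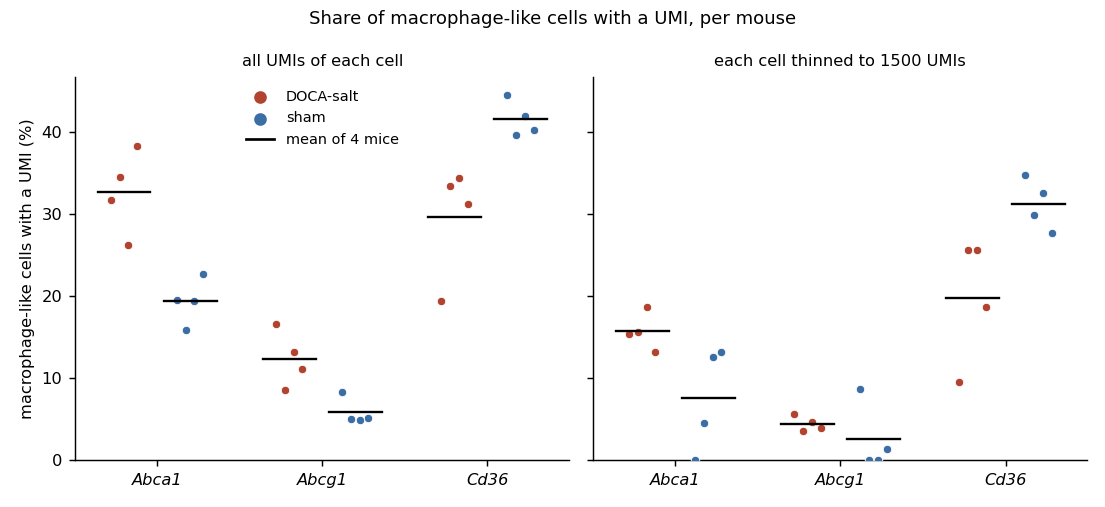
Percent of macrophage-like cells with a UMI of Abca1, Abcg1 or Cd36, 1 point per mouse, DOCA-salt left of sham, with a line at the mean of 4 mice, from all UMIs and from cells thinned to 1500 UMIs. Cd36 is lower and Abca1 higher in DOCA-salt mice in both panels, with the Abca1 groups nearly touching after thinning (13.18% against 13.16%), and Abcg1 overlaps after thinning.

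Macrophage-like cells were then split by whether they held a Trem2 UMI. There were 411 such cells in DOCA-salt mice and 99 in sham mice, against 306 and 197 cells without one. Cells with a Trem2 UMI were deeper, with a median of 4548 UMIs against 2011, and 13.9% of them were in the shallow Dock4-led cluster, against 39.0% of cells without. Both sets were summed per mouse and compared with the mouse as a block, over all 8 mice.

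Apoe and Plin2 were the genes with an unadjusted p under 0.05 by Trem2 status. In DOCA-salt mice Apoe had 15954, 14986, 25109 and 19500.1 CPM in cells with one, against 10946, 14532, 17132 and 15157 CPM in cells without. In sham mice it had 11475, 9142, 10324 and 13432 CPM in cells with one, against 8911, 9997, 10636 and 10746 CPM in cells without. All 4 DOCA-salt mice and 2 of the 4 sham mice were higher. The change in Apoe was 0.26 ± 0.09 (edgeR adjusted p = 0.135), and Plin2, higher in 7 of 8 mice, differed by 0.29 ± 0.14 (0.270). Over the alternative settings run Apoe lay between -0.14 and 0.54, so that its direction turned in 1 of them, and Plin2 between 0.16 and 0.38.

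Abca1 ran the other way, averaging 92.5 ± 37.4 CPM in cells with a Trem2 UMI and 147 ± 59.9 CPM in cells without (SD, n = 8), and was higher with Trem2 in 2 of 8 mice. Its change of -0.31 ± 0.20 did not pass (edgeR adjusted p = 0.434), and without the Dock4-led cluster it was 0.07. Lpl differed by 0.34 ± 0.21, Lipa by 0.21 ± 0.13, Npc2 by 0.16 ± 0.09, Cd36 by -0.10 ± 0.15 and Tyrobp by 0.24 ± 0.09. None of the 7 lipid-handling genes tested passed, by edgeR or DESeq2, where 3.28% of 2405 genes passed. For the 2 with an unadjusted p under 0.05, the share of all genes at that level is not given here. Without the mouse as a block 0 genes passed in all. No interaction between Trem2 status and treatment passed for any of the 7 (Apoe 0.24 ± 0.18, edgeR adjusted p = 1), where 0.129% of 3104 genes did, and none had an unadjusted p under 0.05.

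**Figure D5:**
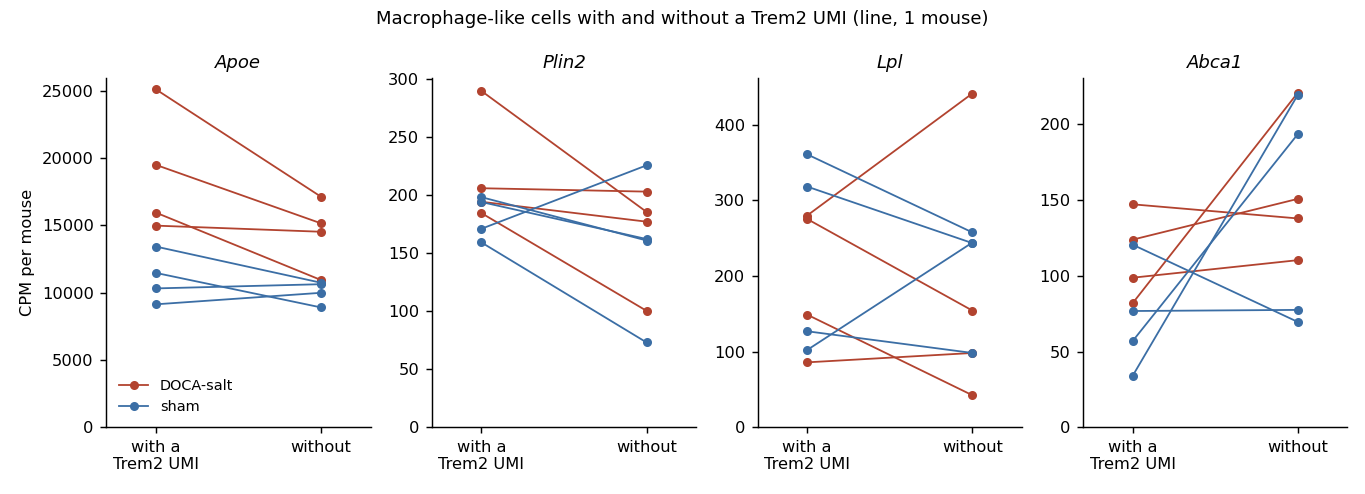
Apoe, Plin2, Lpl and Abca1 in CPM in macrophage-like cells with a Trem2 UMI (left) and without (right), 1 line per mouse. Apoe is higher with a Trem2 UMI in 6 of 8 mice, Plin2 in 7, Lpl in 5 and Abca1 in 2.

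Beside the 10 genes, 4 of the 79 genes called by Trem2 status were of the lipid-associated macrophage list. Of 14 genes of that list 8 were measured beside Trem2, which defines the split and is left out, and 4 rose in cells with a Trem2 UMI, the protease genes Ctsd (0.83 ± 0.16, edgeR adjusted p = 0.00604) and Ctsb (0.37 ± 0.10, 0.0475), the protease inhibitor Cstb (0.78 ± 0.15, 0.00585) and the galectin Lgals3 (0.73 ± 0.18, 0.0219). Their list had a median log2 fold change of 0.39, against 0.01 over all genes. Of 17 genes of lysosomal lipid handling 11 were measured, with a median of 0.05, and 1 passed. None passed edgeR's test of 3 measured genes of lipid uptake and 5 of droplets and fatty acid activation. Nor did any of 4 measured LXR targets or the 1 measured PPAR target. Each list, of uptake, droplets, LXR and PPAR, had 1 gene at an unadjusted p under 0.05, with no share of all genes given here. Those nearest were Acsl1, which activates fatty acids (-0.69, adjusted p = 0.0709), and Abca9 (-0.38, 0.0929), and no gene of cholesterol synthesis was measured. With cells thinned to equal depth, 0 of the genes tested passed.

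For DOCA-salt against sham in macrophage-like cells, none of these lists, from which the 10 genes are left out, held a gene past the threshold by edgeR, the one test run on them. At an unadjusted p under 0.05 there were 4 genes of the lipid-associated macrophage list, 2 of lysosomal lipid handling, 0 of droplet and fatty acid genes and 1 of each other list. The share of all genes at that level is not given here, so these counts cannot be read as an excess. Of uptake receptors 6 of 12 were measured with a median of 0.21, led by Scarb1, the HDL receptor (0.96 ± 0.24, edgeR adjusted p = 0.133), with Axl at -0.39, Lrp1 at 0.37 and Mertk at 0.23. Of LXR targets 6 of 15 were measured with a median of 0.04, among them Scarb1 again, Pltp, a phospholipid carrier (0.36), Arl4c (0.11) and Mylip (-0.11). Of droplet and fatty acid genes 12 of 21 were measured with a median of -0.10, and those with the largest fold changes were Acsl4 (-0.64), Soat1 (0.36), Lipe (-0.34) and Acsl5 (-0.31). Of PPAR targets 2 of 10 were measured, Acadvl (0.53) and Ucp2 (-0.43), and of cholesterol synthesis 3 of 16, Srebf2 (-0.55), Msmo1 (0.31) and Fdps (-0.04).

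All 17 genes of lysosomal lipid handling were measured, with a median of 0.05, and it held the cholesterol exporter Npc1 (0.45), Lamp2 (0.35) and Tfeb (-0.29). Of the lipid-associated macrophage list 9 of 14 were measured with a median of 0.21, led by Ctsd (1.12 ± 0.33, edgeR adjusted p = 0.225), Ctsl (0.80 ± 0.27), the tetraspanin Cd9 (-0.80 ± 0.21) and Trem2. Ctsd, a lysosomal aspartyl protease, passed in the Lyve1-led cluster (1.01 ± 0.22, adjusted p = 0.0342) and in the Dock4-led cluster (2.10 ± 0.63, 0.0444). In B-like cells Cd9 rose (0.94, 0.0474) and Ucp2 fell (-0.38, 0.00659), and the joint model gave Cd9 a lower change in macrophage-like than in B-like cells (-1.73 ± 0.30, edgeR adjusted p = 0.00272). In NK-like cells Lgals3 rose (1.35, 0.00313).

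The genes whose level across classes and macrophage clusters was most like that of each gene were found by Pearson's r of log2(CPM + 10) over 11 points, which share libraries and cells, among 6004 genes. For Apoe these included the F4/80 gene Adgre1 (r = 0.984) and Ly96 (0.983). For Lpl they were Cd14, a co-receptor for lipopolysaccharide (0.986), App (0.958) and Clec4a2 (0.956), and for Lipa P2rx7 (0.974), Rin2 (0.967) and Sdc3 (0.960). For Plin2 they were Rnpep, Clec4a3 and Clec4a1 (0.951 to 0.959), for Cd36 Abhd12, Lilra5 and Hfe (0.921 to 0.946) and for Abca1 Uba7, Itsn1 and 2900093K20Rik (0.932 to 0.953). Abcg1 was most like Sf3b1, Phf3 and Rprd2 (0.914 to 0.936), Npc2 like H1f0, Anxa5 and Il3ra (0.910 to 0.918), Fabp5 like Kctd20, Ltb4r1 and Map2k3 (0.852 to 0.875), and Fabp4 like Igfbp7, a gene of endothelium (0.917), Slc12a2 (0.819) and Eno3 (0.766). Among the 10 genes themselves, Apoe was most like Lpl (r = 0.893) and Lipa (0.876).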

How the data were processed

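The deposited matrices hold raw counts of UMIs per feature and barcode, not normalized, per the file headers and their whole-number values. The authors made these counts with Cell Ranger (matrix header 3.1.0) against mm10, and Seurat 4 is also named, per the submitters' processing notes. The libraries are 5' single-cell libraries with 20 antibody features, 4 of them hashtags, and the deposited feature and barcode lists hold names and other text only. A floor of 200 genes and a ceiling of 10% mitochondrial UMIs left 7351 DOCA-salt and 4254 sham cells. Scrublet called 241 (3.28%) and 79 (1.86%) of these doublets, which were removed. Cells were assigned to mice by their leading hashtag, required to have at least 2 times the runner-up's count, which 321 (4.37%) and 136 (3.20%) cells did not reach. Cells were clustered on 2000 variable genes and 30 principal components (scanpy 1.11.5, leidenalg 0.10.2, resolution 1, no batch correction), and a class needed 3 markers. A cluster with genes of macrophages and of B cells together (166 DOCA-salt and 214 sham cells) stayed unnamed.

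UMIs were summed per mouse and class, and mice were compared 4 against 4 by edgeR 4.0.16 (filterByExpr, TMM, quasi-likelihood test, R 4.3.3), with Benjamini-Hochberg adjustment over all genes of the class. DESeq2 1.42.0 was an alternative. Macrophage-like cells had 196249 to 1807823 UMIs per DOCA-salt mouse and 114691 to 324265 per sham mouse. On simulated data the test recovered 68.9% of 90 tested genes changed 2-fold in macrophage-like cells (4506 genes). In the Lyve1-led cluster (2878 genes) it recovered 62.9% of 89. Each simulation changed 200 genes at once, 2-fold or 4-fold. In macrophage-like cells it gave 152 calls, where the real comparison gave 8. The adjustment is more lenient with that many changes, so these shares do not give the recovery of a lone 2-fold change. Intervals and p-values over cells cover counting error only, and none is used as a test. The labels call the mice biological replicates.

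The genes and lists were chosen with earlier results of these data known. Named are the 10 genes, Trem2 and Tyrobp, of each list those past the threshold and up to 4 with the largest change in macrophage-like cells and, for each of the 10 genes, the 3 most like it. Spp1 was named after its values were seen. Some results under these rules, and 1 alternative split of macrophages except in ranges over alternatives, are not reported here. Lists leave out the 10 genes. Positions are from GENCODE M21 and promoters from RefSeq. Part of Plin2 (259 bases at 96.1% identity) has a near copy, Gm12551, and no other transcript matched 200 bases of one of the 10 genes at 90%.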

Additional observations from a re-analysis of the deposited data

Results flagged for a closer look

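Of 56 groups of 4 mice looked at, 7 held 1 mouse whose gap to its nearest neighbour, as a part of the group's range, was above Dixon's critical value for 4 samples. Chance alone flags about 1 group in 20.

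Fabp4 stood apart in sham mouse 2 in nonclassical monocyte-like cells, at 1971 CPM (280 UMIs), with the other sham mice between 213 and 512 CPM. It also did in T-like cells, at 532 CPM (262 UMIs), with the other sham mice between 0 and 61.7 CPM. A single cell with endothelial markers held 230 of the 280 UMIs in the first class and 261 of the 262 in T-like cells, and without such cells sham mouse 2 had 398 CPM in nonclassical monocyte-like cells, within the range of the other sham mice. Fabp4 in macrophage-like cells of sham mouse 1, at 34.9 CPM with the others between 17.6 and 18.6 CPM, rested on 4 UMIs.

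Apoe in classical monocyte-like cells was 3163 CPM in sham mouse 3, a single cell with 29 Apoe UMIs, with the other sham mice between 709 and 1026 CPM. In the Dock4-led cluster Apoe was 16445 CPM in the same mouse (454 UMIs in 20 cells), with the others between 11121 and 11518 CPM. In that cluster sham mouse 3 was still below every DOCA-salt mouse.

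Cd36 in macrophage-like cells was 288 CPM in sham mouse 1 (33 UMIs in 36 cells), with the other sham mice between 229.7 and 235 CPM. Npc2 in macrophage-like cells was 1199 CPM in DOCA-salt mouse 1 (2168 UMIs), with the other DOCA-salt mice between 769 and 833 CPM. That mouse also gave the most macrophage-like cells and most of the Birc5-led cluster, where Npc2 averaged 1063 CPM. Its part in the Npc2 value was not tested.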

How the results depend on the processing

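No paired analysis was possible because hashtags number the mice inside each library and tie none of them to a mouse of the other group. Of 564 values over 36 results, 514 kept direction and side of the threshold, 15 newly passed, 14 no longer passed and 21 changed sign. The 4 calls per class became 12 with no filter on low counts and 3 to 5 when each mouse was left out. The 2 calls per macrophage cluster became 1 to 2. By Trem2 status, where the mouse is the replicate block, 0 lipid-handling genes passed with or without the block, and 1 (Apoe, 0.54, adjusted p = 0.0208) when Adgre1 replaced Trem2. Its interaction with treatment gave 0 to 1 over mice left out, the 1 being Fabp5 without DOCA-salt mouse 2. The causes were not tested.

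Signs changed on small values and, by Trem2 status, also on Abca1, Lpl and Apoe, which had -0.31, 0.34 and 0.26 in the main fit. Over mice left out, macrophage-like Lpl lay between -0.50 and 0.010, Npc2 between -0.14 and 0.085 and Lipa between -0.26 and 0.0017, T-like Apoe between -0.38 and 0.12, Cd36 by Trem2 status between -0.28 and 0.00045, and Apoe in macrophage-like minus B-like cells between -0.11 and 0.21. Without the Dock4-led cluster Npc2 was -0.0069. T-like Apoe was 0.22 with doublets kept and 0.18 thinned. By Trem2 status, Abca1 was 0.14 with Adgre1 as the splitting gene, 0.071 without the Dock4-led cluster and 0.32 in the Lyve1-led cluster alone. Cd36 was 0.23 thinned, 0.31 with Adgre1 and 0.21 in the Lyve1-led cluster alone. Npc2 was -0.0074 from sums per mouse and cluster. Over all alternatives run, Apoe by Trem2 status lay between -0.14 and 0.54 and Lpl between -0.12 and 0.59.

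Counts of all genes called moved by over 1.5 times: 0 to 125 in macrophage-like (8), 27 to 110 in nonclassical monocyte-like (39), 25 to 315 in B-like (131), 18 to 178 in T-like (27), 0 to 133 in NK-like (61), 1 to 165 in classical monocyte-like (1), 0 to 39 in cDC-like (0) and 0 to 11 in neutrophil-like cells (0). They were 5 to 58 in the Lyve1-led (18), 18 to 41 in the Dock4-led (38), 0 to 31 in the Chil3-led (0) and 1 to 8 in the Birc5-led cluster (2), and 0 to 111 by Trem2 status (79). The removal of the Dock4-led cluster, of cells with endothelial markers and the Lyve1-led cluster alone were chosen after seeing the data. A single C1q-led cluster did not form, so that alternative was not run. Abcg1, Fabp4 and Fabp5 were limited by depth, with 16 to 28 UMIs each in sham macrophage-like cells.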
